A study of Homo sapiens with 18 samples.

Results

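In Kasumi-1 cells carrying Flag-tagged AML1-ETO, 7945 genomic regions were called as anti-Flag peaks after knockdown of miR-130a and in no other peak list of the study. They were found by merging the peaks of 4 lists wherever they shared at least 1 bp: anti-ETO in control cells, anti-Flag in control cells, anti-ETO in knockdown cells and anti-Flag in knockdown cells. The merge gave 35622 regions, and the regions built from knockdown anti-Flag peaks alone made up 22.3% of them. Each held exactly 1 knockdown anti-Flag peak, and none overlapped either of the authors' lists of dual-antibody peaks, 1 for each condition. Because the calls themselves chose these regions, their presence in one list and absence from the other lists is a description and was not tested.

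Kasumi-1 is an acute myeloid leukaemia line with the t(8;21) translocation, which fuses the DNA-binding part of RUNX1 to most of RUNX1T1 (ETO). The fusion protein, AML1-ETO, sits on DNA with the partner CBFB and with haematopoietic factors of the ETS and E-protein families, and it recruits corepressors such as NCoR and histone deacetylases. CUT&RUN maps a bound protein by tethering a nuclease to the antibody and sequencing the short fragments that it releases. The Flag tag gives a second handle on the same protein, besides the antibody against ETO. miR-130a is a microRNA studied here for its targets in blood stem cells and in t(8;21) leukaemia, and the libraries ask where AML1-ETO is found on chromatin once it is lowered.

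The series held 18 CUT&RUN libraries in 6 groups of 3: control or miR-130a knockdown cells, each with mouse anti-ETO, mouse anti-Flag M2 or mouse IgG. All groups were cells of this line with the tagged fusion, transduced with a control or knockdown vector, sorted for GFP and taken 3 days later. The deposited lists gave 14264 control anti-ETO, 23162 control anti-Flag, 22594 knockdown anti-ETO and 25961 knockdown anti-Flag peaks. They carry no height, score, read number or replicate, so a list stands for its group of 3 libraries, the depth behind a call is unknown, and no value here has an error over libraries. The lists hold no RNA, so the cell line was not checked against its marker genes.

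Few of the regions called only by knockdown anti-Flag reached a promoter. The promoters they touched held fewer CG pairs than those touched by the other classes of regions. Places called in another list were closed to these regions, so both points are tied to how they were chosen. RefSeq promoter windows of 300 bases, from 250 bases before to 50 after a gene start, were used (GRCh38.p14, the hg38 assembly). On 22 chromosomes, which held 7459 of the regions, 84 regions touched 99 such windows of 90 genes. Of these genes, 67 were protein-coding and 23 made long non-coding RNAs. Such windows were touched by 242 of 3532 regions of control anti-Flag alone and 4060 of 8527 of all 4 lists. For anti-Flag in both conditions without anti-ETO it was 22 of 1205, also a small share. Only 8 of the 99 windows lay whole within a region of knockdown anti-Flag alone. The 3 of these in the widest regions are shown, with the 250 bases before the start written 5′ to 3′ on the gene's strand and each CG pair in capitals. They are LTBP4, whose product binds latent TGF-beta (chr19:40592916-40593165, plus strand), LCN6, a lipocalin gene (chr9:136748526-136748775, minus strand), and the long non-coding RNA gene LOC105372250 (chr19:4722826-4723075, plus strand).
LTBP4: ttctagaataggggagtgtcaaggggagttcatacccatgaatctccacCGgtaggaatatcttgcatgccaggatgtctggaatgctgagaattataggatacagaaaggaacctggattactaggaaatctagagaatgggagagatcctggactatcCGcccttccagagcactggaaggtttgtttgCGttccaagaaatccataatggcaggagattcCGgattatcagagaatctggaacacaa
LCN6: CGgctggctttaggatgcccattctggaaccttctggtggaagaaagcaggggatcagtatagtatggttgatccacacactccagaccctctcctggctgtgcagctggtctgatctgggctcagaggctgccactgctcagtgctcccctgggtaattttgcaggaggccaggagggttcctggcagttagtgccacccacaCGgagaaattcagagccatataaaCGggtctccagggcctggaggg
LOC105372250: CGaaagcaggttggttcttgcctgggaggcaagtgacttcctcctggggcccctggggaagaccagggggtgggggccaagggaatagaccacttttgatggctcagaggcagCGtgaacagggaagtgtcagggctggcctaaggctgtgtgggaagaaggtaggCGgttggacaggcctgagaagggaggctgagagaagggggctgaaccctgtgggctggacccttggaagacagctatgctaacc

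The LTBP4 stretch holds 4 CG pairs, and those of LCN6 and LOC105372250 hold 3 each. SULT1A3, a sulfotransferase gene, is shown as the window with the fewest CG pairs of the 8 (chr16:30199005-30199254, plus strand), and was picked after its count was seen. It has a near-identical copy, so its peak may belong to either. A RUNX1 start inside a region of all 4 lists is shown for contrast and was also picked with its count known (chr21:34888700-34888949, minus strand).
SULT1A3: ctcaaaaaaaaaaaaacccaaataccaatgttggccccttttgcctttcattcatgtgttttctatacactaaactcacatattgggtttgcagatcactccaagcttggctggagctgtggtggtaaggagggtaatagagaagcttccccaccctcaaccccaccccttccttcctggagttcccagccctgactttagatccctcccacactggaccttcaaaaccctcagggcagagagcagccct
RUNX1: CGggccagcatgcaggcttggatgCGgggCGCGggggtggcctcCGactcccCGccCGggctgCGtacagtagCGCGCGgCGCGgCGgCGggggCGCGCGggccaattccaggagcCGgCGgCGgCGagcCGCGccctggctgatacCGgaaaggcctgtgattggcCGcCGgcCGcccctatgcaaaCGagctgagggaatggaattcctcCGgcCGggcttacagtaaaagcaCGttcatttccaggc

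The SULT1A3 stretch has no CG pair, and the RUNX1 stretch has 32. Over the full windows the median was 9 CG pairs (quartiles 5 and 19) in the 99 windows touched by regions of knockdown anti-Flag alone. It was 26 (quartiles 15 and 33) in 317 windows touched by regions of control anti-Flag alone, 16.5 in 28 windows of anti-Flag in both conditions without anti-ETO, 29 (quartiles 21 and 37) in 5940 windows touched by regions of all 4 lists, and 14 over all 34961 windows. Median GC content was 60.0% for knockdown anti-Flag alone, 64.0% for control anti-Flag alone, 62.3% for anti-Flag in both conditions, 68.0% for all 4 lists and 58.7% over all windows. Places called in the other lists were closed to the regions, and the windows of all 4 lists had the highest of these medians. The low CG median is therefore tied to how the regions were chosen, and it was not tested.

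Short motifs of the factors known to work beside AML1-ETO were counted in the windows on both strands. The RUNX letters TGTGGT were in 16 of 99 windows (16.2%), against 13.1% of all 34961 windows. They were in 8 of 28 windows (28.6%) of anti-Flag in both conditions without anti-ETO, 9.15% of the windows of control anti-Flag alone and 10.4% of the windows of all 4 lists. Matches were counted over whole windows. In those of SETMAR, MBD3L4, MPIG6B and TSPAN31, no RUNX letters lay inside the region. The SH2D3C windows overlap each other and hold the same site, also outside the region. The windows of MBD3L3 and MBD3L4 hold the RUNX letters in near-identical stretches. The ETS letters GGAAGT were in 24.2%, against 22.8% of all windows, and the E-box letters CAGNTG were in 54.5%, against 49.9%. The AP-1 letters TGANTCA were in 4.04% of the 99 windows and 7.68% of all windows, and the GATA letters AGATAA in 10.1% and 10.3%. The GC box letters GGGCGG, the core of Sp1-type sites, were in 44.4% of the 99 windows, 15743 of all 34961 windows and 77.6% of windows touched by regions of all 4 lists. With 99 windows these shares are descriptions. They describe the rare regions at starts, while the sequence of the other regions was not analysed here.

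The regions were narrow. Their median width was 277 bp (quartiles 211 and 366 bp, from 165 to 1831 bp), and together they covered 2.55 Mb. Regions of control anti-Flag alone were of nearly the same width, with a median of 275 bp. The median was 479 bp for regions with anti-Flag in both conditions and no anti-ETO, and 1056 bp for regions of all 4 lists, which can join several peaks. Within the knockdown anti-Flag list, the 7945 peaks were 30.6% of the peaks and 19.3% of the covered length, and the other 18016 peaks had a median of 424 bp. With that list ranked by width into 4 equal groups, they were 3245 of the 6491 narrowest peaks (165 to 253 bp), 41.3% and 23.3% of the middle groups, and 7.83% of the widest peaks (582 to 10499 bp). A wide peak meets other peaks more easily, so width is tied to how the regions were chosen and was not tested. When all lists were shortened by width to the length of the shortest, 3554 regions (15.5% of the merged regions) were of knockdown anti-Flag alone, and with the wider 50% of each list there were 3785 (21.1%).

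At the edge of the rule, peaks on both sides were of similar width. The regions within 50 bp of another list's peak numbered 77 and had a median width of 259 bp. On the other side, 156 knockdown anti-Flag peaks overlapped another list's peak by at most 50 bp, with a median of 254 bp. Few regions were near that edge: the median gap to the nearest peak of the other 3 lists was 2.64 kb (quartiles 0.808 and 7.05 kb). A peak of another list lay within 1 kb of 2280 regions (28.7%) and within 10 kb of 6566 (82.6%), and 35 regions were over 100 kb from any. Control anti-Flag peaks were nearest, at a median of 3.48 kb, followed by knockdown anti-ETO at 4.06 kb and control anti-ETO at 7.63 kb. These distances also follow the lengths of the lists.

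The nearest merged region of another kind was one with anti-Flag in both conditions and no anti-ETO for 1019 of the regions (12.8%), although that class was 4.85% of the other regions. For regions of all 4 lists the shares were 30.3% of nearest neighbours and 31.9% of the other regions, and for knockdown anti-ETO alone they were 7.80% and 13.3%. Control anti-Flag alone had 15.3% of nearest neighbours and 13.1% of the other regions, and both antibodies in knockdown only had 10.8% and 6.70%. These shares were not tested.

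Position relative to genes was not itself used to choose the regions, but places called in the other lists were closed to them. The regions were compared with 3 other classes on 4 position measures. Two-sided Fisher's exact tests over regions were used, with Benjamini-Hochberg adjustment over the 12 tests. Regions are not replicates of a condition: such a p compares called lists, not libraries, neighbouring regions are not independent, and the p-values are therefore too small. The intervals given are 95% Wilson intervals over regions.

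Regions called only by knockdown anti-Flag were rarely at gene starts. On the 22 chromosomes with promoter windows, 350 of 7459 had their centre within 1 kb of a start (4.69%, 4.24 to 5.20%), where the 1-kb surroundings of all starts cover 1.94% of the length. For regions of control anti-Flag alone, which have nearly the same width, the share was 16.3% (15.1 to 17.6%), a difference of -11.6 percentage points (adjusted p = 1.2e-85 by Fisher's exact test, odds ratio 0.253). For anti-Flag in both conditions without anti-ETO it was 6.89% (5.59 to 8.46%), a difference of -2.20 points (adjusted p = 0.00203 by Fisher's exact test) that was lost under 3 of the alternative settings given in the closing section. Regions of all 4 lists lay within 1 kb of a start in 51.7% (50.6 to 52.8%; Fisher's exact test, adjusted p = 6.2e-1050). Those regions are also much wider, and the parts of width and of the calls in that difference cannot be told apart.

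Counted in steps of 0.5 kb, the regions were fewer at the start itself than on either side. The 0.5 kb just before the start held 0.979% of them and the 0.5 kb just after held 0.885%, while the step from 1 to 1.5 kb after the start held 1.78%. Regions of control anti-Flag alone showed the opposite shape, with 4.87% and 4.90% in the same 2 steps at the start and 3.37% at 1 to 1.5 kb after it. Regions with anti-Flag in both conditions and no anti-ETO, 1205 in number, also had lower shares at the start, with 1.58% and 1.16% in these steps and 2.07% from 0.5 to 1 kb on each side. A peak that meets another list is left out by the rule, and regions of all 4 lists had 16.8% and 23.6% in these steps. The shares at the start are therefore tied to how the regions were chosen, and these shapes were not tested. The plot of distance from the gene start shows all 4 classes.

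**Figure D1:**
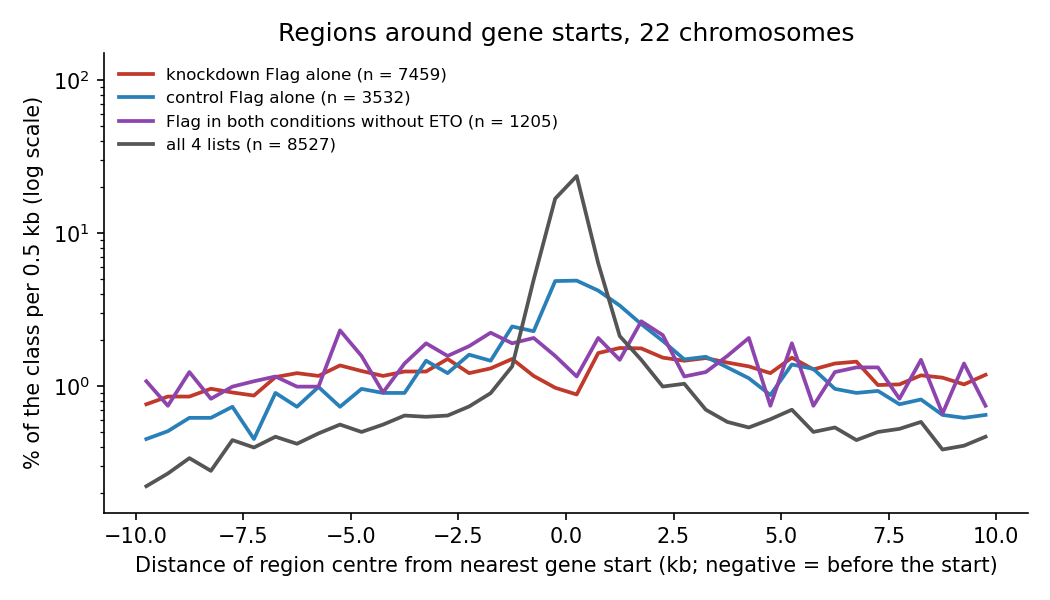
Share of each class of regions per 0.5 kb of distance between region centre and nearest RefSeq gene start (horizontal axis, kb, negative before the start; vertical axis, % of the class, log scale; one line per class, 22 chromosomes). The line of knockdown Flag alone dips at the start, to 0.979% and 0.885%, where the line of all 4 lists peaks at 16.8% and 23.6%.

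The regions instead lay mostly in gene bodies. In protein-coding genes, over 1 kb from any boundary, lay 3768 of 7459 regions (50.5%). A further 814 (10.9%) were within 1 kb of a gene boundary that was not a listed start, 317 (4.25%) were in bodies of other genes, and 2210 (29.6%) were outside genes. The share in protein-coding bodies was 42.5% for control anti-Flag alone, 42.2% for anti-Flag in both conditions without anti-ETO and 20.4% for all 4 lists. The share of the chromosomes' length in such bodies was not computed, and these shares were not tested. The median distance to a start was 10.1 kb (quartiles 4.55 and 21.4 kb), against 7.15 kb, 8.29 kb and 0.869 kb in these classes. With starts and ends of all annotated genes on 23 chromosomes, 1155 of 7945 regions (14.5%, 13.8 to 15.3%) were within 1 kb of a boundary. Control anti-Flag alone had 24.5% (23.1 to 25.9%), a difference of -9.95 points (adjusted p = 4.8e-37 by Fisher's exact test). The share was 59.9% for all 4 lists (Fisher's exact test, adjusted p = 1.6e-842). Regions of all 4 lists are wider and their places were closed to the regions by the rule, so this difference is tied to the choice. The share was 16.2% (14.4 to 18.3%) for anti-Flag in both conditions without anti-ETO, a difference of -1.69 points that did not pass (Fisher's exact test, adjusted p = 0.115). The difference of -1.69 points passed with the wider 50% of each list (-5.28), at 2.5 kb (-4.44) and with protein-coding genes only (-1.67), and it was 0.814 with gaps of up to 500 bp merged.

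The regions were gathered on a few gene-rich chromosomes. Chromosome 19 held 1449 of them (18.2%), chromosome 17 held 1219 (15.3%), chromosome 11 held 923 (11.6%) and chromosome 16 held 780 (9.82%). These are the 4 chromosomes with most protein-coding genes per Mb, at 24.8, 14.0, 9.63 and 9.47, and together they carried 4371 regions, 55.0% (53.9 to 56.1%). Regions of control anti-Flag alone had 34.8% there (33.3 to 36.4%), 20.2 points less (adjusted p = 4.5e-91 by Fisher's exact test, odds ratio 2.29). Regions of all 4 lists had 34.1% (33.2 to 35.1%), 20.9 points less (Fisher's exact test, adjusted p = 2.8e-163). Regions with anti-Flag in both conditions and no anti-ETO had 56.1% (53.5 to 58.8%), a difference of -1.13 points that did not pass (Fisher's exact test, adjusted p = 0.458). This difference turned with the lists: it was 8.75 points with the wider 50% of each list and 6.32 points with equal list lengths, and -3.80 points with gaps of up to 500 bp merged, and each of these passed.

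The share of the knockdown anti-Flag list that stood alone also varied by chromosome. It was 39.9% on chromosome 11, 38.7% on chromosome 8, 38.1% on chromosome 17, 37.2% on chromosome 16 and 37.1% on chromosome 19, and was as low as 11.7% on chromosome 2, 11.1% on chromosome 13 and 9.22% on chromosome X. Chromosome 8, with 486 regions, is not gene-dense as a whole. The regions of control anti-Flag alone amounted to 10.8% to 18.2% of the control anti-Flag list on each chromosome. The numbers of peaks moved with this: knockdown anti-Flag had 1.45 times as many peaks as control anti-Flag on chromosome 11 and 1.42 times as many on chromosome 19, but 0.687 times as many on chromosome 13 and 0.719 times on chromosome 18. As a description over 23 chromosomes of the same lists, the number of regions per Mb had a Pearson's r of 0.965 (Spearman's rho 0.782) with protein-coding genes per Mb. The share of the list standing alone had an r of 0.579 (rho 0.624), and the corresponding share for control anti-Flag had an r of 0.0181 (rho -0.0178). The correlation of regions per Mb was not computed for the other classes. Chromosome 19 also held the most regions of control anti-Flag alone (422) and of all 4 lists (1029).

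**Figure D2:**
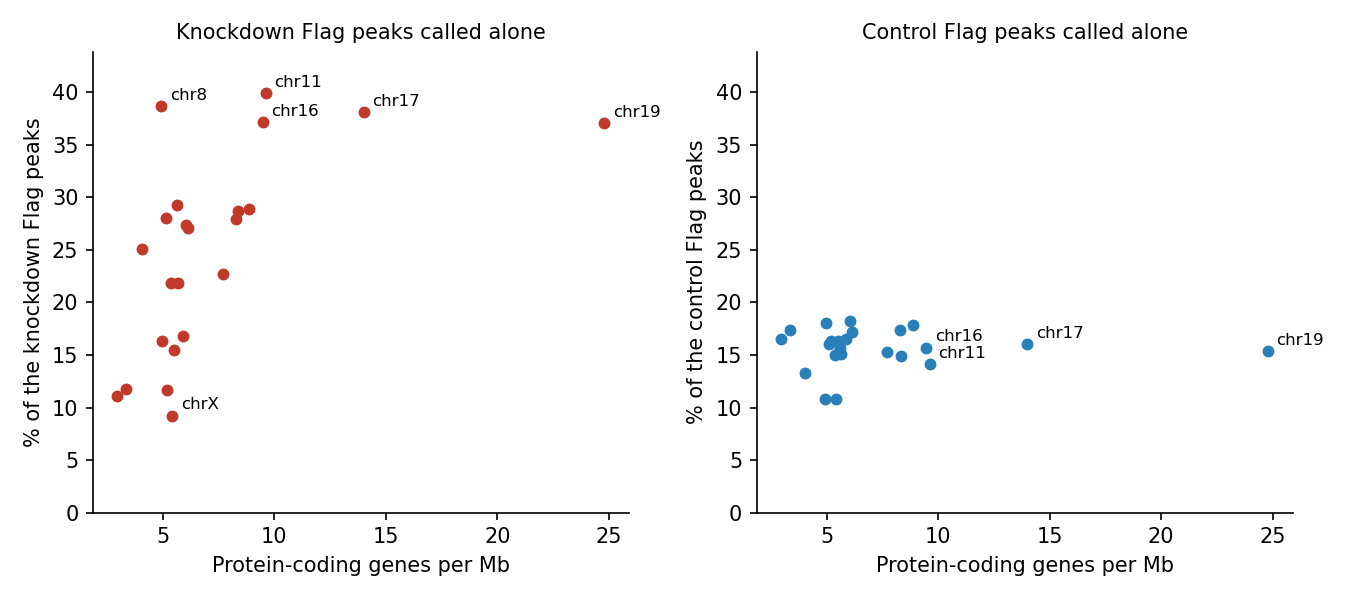
Share of the knockdown anti-Flag peaks (left) and of the control anti-Flag peaks (right) called in no other list, by chromosome (vertical axes, %), against protein-coding genes per Mb (horizontal axes); each point is 1 of 23 chromosomes. The left shares run from 9.22% on chromosome X to 39.9% on chromosome 11, and the right shares stay between 10.8% and 18.2%.

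Windows of 1 Mb showed the same gathering at a finer scale. The 76 windows with 31 or more protein-coding genes held 3533 of the regions (44.5%), or 46.5 per window, whereas the 1323 windows with 1 to 5 such genes held 282 (3.55%), or 0.213 per window. The gene-richest windows held 21.2% of the regions of control anti-Flag alone, 24.2% of those of all 4 lists and 51.0% of those with anti-Flag in both conditions and no anti-ETO. The knockdown list had 1.5 times as many anti-Flag peaks as the control list in the gene-richest windows (8882 and 5914) and 0.760 times as many in windows of 1 to 5 genes (2002 and 2633). The difference between the 2 anti-Flag lists thus had opposite signs in gene-rich and gene-poor windows. Of the knockdown anti-Flag peaks, 39.8% stood alone in the former and 14.1% in the latter. No read depth, background level or fragment composition is given for the lists, so the part of these in the pattern was not tested.

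**Figure D3:**
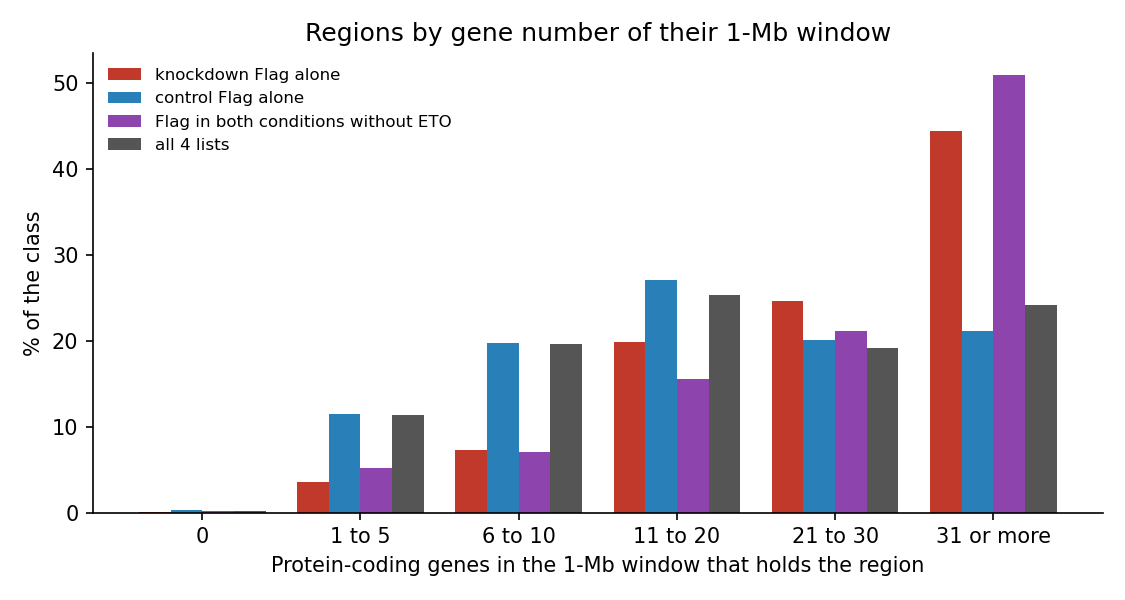
Share of each class of regions (vertical axis, %) in 1-Mb windows grouped by their number of protein-coding genes (horizontal axis); bars of one colour sum to the whole class. Windows with 31 or more genes held 44.5% of regions of knockdown Flag alone and 51.0% of those with Flag in both conditions without ETO, against 21.2% and 24.2% of the other classes.

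The regions were also near chromosome ends. Within 5 Mb of an end lay 3185 regions, 40.1% (39.0 to 41.2%). The share was 24.0% both for control anti-Flag alone (22.7 to 25.4%, a difference of 16.1 points; Fisher's exact test, adjusted p = 1.6e-65) and for all 4 lists (23.1 to 24.9%, also 16.1 points; adjusted p = 1.7e-110 by the same exact test). It was 47.1% (44.5 to 49.8%) for regions with anti-Flag in both conditions and no anti-ETO, which is 7.05 points more than for the regions of knockdown anti-Flag alone (Fisher's exact test, adjusted p = 1.8e-06). That difference passed with all peaks, but it was 1.52 points in the other direction with the wider 50% of each list, and it did not pass with all lists shortened to the same length (-2.20 points). Gene-rich windows and chromosome ends are partly the same places.

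A small part of the genome held most of the regions. They were found in 648 of 3038 windows of 1 Mb, and the 10 fullest windows held 20.0% of them and the 50 fullest 53.0%. The 10 fullest windows of each other class held 5.77% of the regions of control anti-Flag alone, 7.10% of those of all 4 lists and 28.8% of those with anti-Flag in both conditions and no anti-ETO. The fullest was chr8:144000001-145000000, with 218 regions and 46 protein-coding genes. There 432 knockdown and 212 control anti-Flag peaks were called, a ratio of 2.04. The next was chr17:82000001-83000000, with 206 regions, 368 knockdown and 157 control anti-Flag peaks, a ratio of 2.34. It was followed by chr11:65000001-66000000, with 195 regions, 435 knockdown and 237 control anti-Flag peaks, a ratio of 1.84. The other 7 of the 10 fullest windows, on chromosomes 8, 11, 16 and 17, had 115 to 173 regions each and ratios of 1.51 to 2.01. Because these windows were ranked by their number of regions, ratios above those of other windows follow from the choice.

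Inside such windows the regions formed runs. With regions linked when the gap between them was at most 10 kb, 2419 stood single (30.4%), 337 runs of 5 or more held 2909 (36.6%) and 77 runs of 10 or more held 1269. Of the 8835 regions of all 4 lists, 46.6% were single and 147 were in runs of 10 or more. Those regions can join several peaks, and runs were not counted for the other classes. The longest run had 50 regions over 119 kb (chr17:82107623-82226783), with a median spacing of 1.69 kb, across CCDC57, which encodes a coiled-coil protein, and SLC16A3, the lactate exporter MCT4. In this stretch 4 control anti-ETO, 17 knockdown anti-ETO, 21 control anti-Flag and 73 knockdown anti-Flag peaks were called. The regions covered 18.4% of it, and no region of control anti-Flag alone was there.

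**Figure D4:**
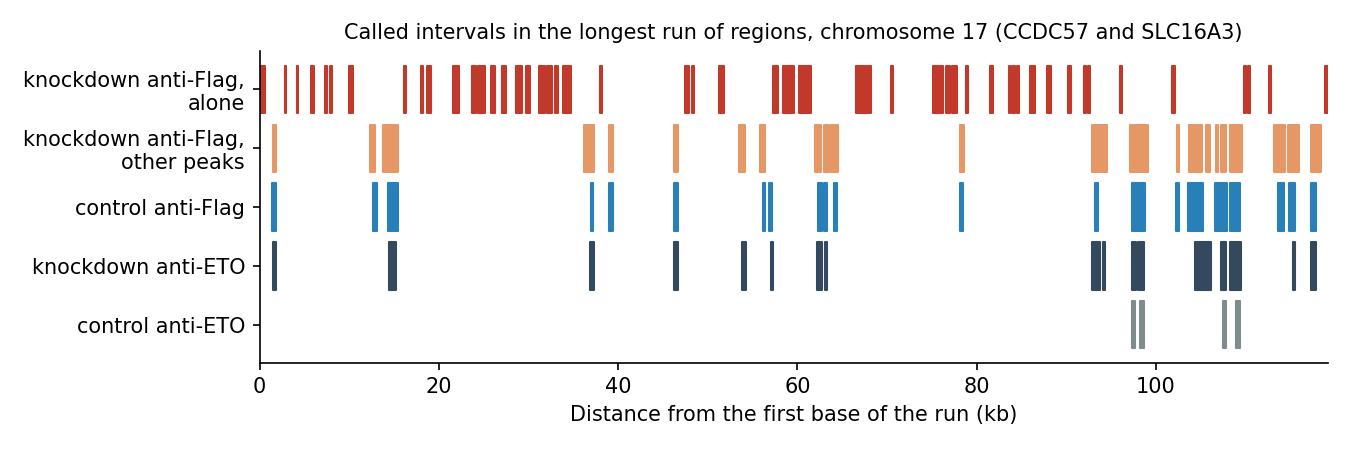
Called intervals of the 4 lists in the longest run, on chromosome 17 (horizontal axis, kb from the first base of the run; each bar is 1 interval drawn to scale, and the knockdown anti-Flag list is divided into peaks called alone and other peaks). The 50 regions called only by knockdown anti-Flag fill spaces between the 21 control anti-Flag and 17 knockdown anti-ETO peaks, and the 4 control anti-ETO peaks lie towards the right end.

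The next longest runs had 37 regions over 93.4 kb at FAAP100 and NPLOC4 (chr17:81539620-81632987) and 34 over 124 kb at CCDC88B and RPS6KA4 (chr11:64323934-64448221). A run of 34 over 110 kb crossed RNF43, a ubiquitin ligase for Wnt receptors, and HSF5 (chr17:58363834-58474159). Runs of 32 and 30 regions lay at FAU, MRPL49, SYVN1, SPDYC and CAPN1 (chr11:65121803-65204179) and at FAHD1, MEIOB and HS3ST6 (chr16:1829377-1924018). The 6 longest runs held 40 to 73 knockdown and 9 to 21 control anti-Flag peaks each, an excess that follows from how the regions and runs were chosen.

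By gene, 3708 of 19974 protein-coding genes (18.6%) had a region of knockdown anti-Flag alone in the body or within 10 kb. The same count gave 17.0% of genes for control anti-Flag alone, 5.70% for anti-Flag in both conditions without anti-ETO and 35.2% for all 4 lists. Of the 3708 genes, 1761 had 1 region, 553 had 5 or more and 15 had 20 or more. A region of all 4 lists was also at 2982 of them, which is 80.4% of these genes and 42.4% of the genes with a region of all 4 lists. Most of these genes thus also had a region called in every list.

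The 10 genes with most regions encode proteins of varied function. ARHGAP39, a GTPase-activating protein on chromosome 8, had 51 regions, 50 of them in its 171-kb body at a median spacing of 2.19 kb. Knockdown anti-Flag had 76 peaks there, control anti-Flag 26, knockdown anti-ETO 17 and control anti-ETO 6. CCDC57 had 49 regions, with 75 knockdown and 23 control anti-Flag peaks. MROH1, a HEAT-repeat protein, had 41, with 68 and 27. NPLOC4, a cofactor of the VCP segregase, had 34, with 47 and 12, and PACS1, a sorting protein of the trans-Golgi network, had 31, with 48 and 17. ZC3H3, a zinc finger protein, had 28 and the forkhead factor FOXK2 had 26. HSF5, of the heat shock factor family, and TOP6BL, a protein of meiotic recombination, had 25 each. ZBTB46, a transcription factor of dendritic cells, had 23.

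In all 10 genes the 4 lists differed in number, with knockdown anti-Flag the longest (29 to 76 peaks) and control anti-ETO the shortest (1 to 11). TOP6BL had 29 knockdown anti-Flag, 4 control anti-Flag, 5 knockdown anti-ETO and 2 control anti-ETO peaks, and HSF5 had 30, 8, 3 and 1. Since these genes were chosen for their number of regions, the excess of knockdown anti-Flag peaks in them follows from the choice.

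**Figure D5:**
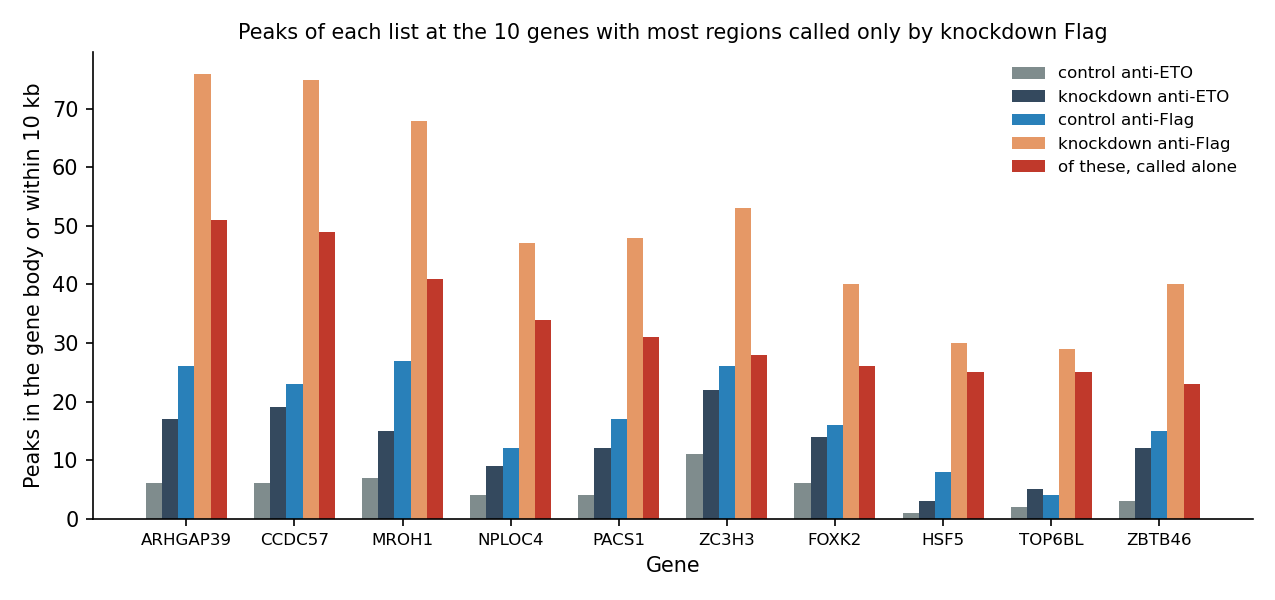
Number of peaks of each list in the body or within 10 kb of the 10 genes with most regions called only by knockdown anti-Flag (vertical axis, peaks; groups of bars, genes; red bars, the knockdown anti-Flag peaks called alone). ARHGAP39 has 76 knockdown anti-Flag peaks, 51 of them alone, against 26 control anti-Flag peaks.

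Genes of the AML1-ETO complex were followed as a fixed list. Of 14 genes, 7 had a region of knockdown anti-Flag alone (against 18.6% of all protein-coding genes; the median number per gene was 0.5), 6 had a region of control anti-Flag alone (42.9%, against 17.0%), and 10 had a region of all 4 lists (71.4%, against 35.2%). CBFB, the partner of the RUNX proteins, had 6 regions, all inside its body on chromosome 16, the first at chr16:67032442-67032633. There 11 knockdown and 5 control anti-Flag peaks were called, with 6 knockdown and 4 control anti-ETO peaks. RUNX1 itself, whose 5′ part is in the fusion gene, had 2, the first at chr21:34903505-34903841. All lists called many peaks at RUNX1, and control anti-Flag had 19 against 16 for knockdown anti-Flag.

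RUNX3 had 3 regions (first at chr1:24926637-24926929), and RUNX2 had 1 (chr6:45424007-45424247). TCF3 and LYL1, basic helix-loop-helix factors, had 2 each, none in the gene body, and EP300, an acetyltransferase, had 1 (chr22:41107887-41108129). RUNX1T1, TCF12, LMO2, LDB1, ERG, FLI1 and PRMT1 had none.

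Of 9 genes of the NCoR corepressor, 3 had a region (against 18.6% of all protein-coding genes). A region of control anti-Flag alone was at 2 of the 9 (against 17.0%), and a region of all 4 lists at 6 (against 35.2%). Among these genes, the deacetylase HDAC3 and the scaffold SIN3A had 1 region of knockdown anti-Flag alone each. TBL1XR1, the NCoR subunit named in the title of the series, had none and a single peak in all, from knockdown anti-ETO.

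Of 17 myeloid and AML1-ETO target genes, 6 had a region (35.3%, against 18.6% of all protein-coding genes). The number with a region of control anti-Flag alone was also 6, and 14 had a region of all 4 lists (82.4%). MPO, the myeloperoxidase of neutrophil granules, had 2 outside its body (first at chr17:58287695-58288005), with 5 knockdown and 6 control anti-Flag peaks. LAT2, an adaptor of immune receptor signalling, had 2 in its body (first at chr7:74210862-74211393), with 8 knockdown and 4 control anti-Flag peaks. CEBPA, the granulocyte transcription factor that AML1-ETO is known to repress, had 1 (chr19:33298340-33298612), as did NFE2, the DNA repair gene OGG1 and the Notch ligand gene JAG1. SPI1, GFI1, CSF1R, KIT, CD34 and the other genes of this list had none.

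Of 10 erythroid and megakaryocyte genes, 6 had a region (60.0%, against 18.6% of all protein-coding genes), 7 had a region of control anti-Flag alone and 5 a region of all 4 lists. KLF1, the erythroid Krüppel-like factor, and ZFPM1, the GATA1 cofactor FOG1, had 2 each, ITGA2B, the platelet integrin, had 2, and the repressor GFI1B had 1 (chr9:132991986-132992153). The alpha-globin genes HBA1 and HBA2 shared the same 3 regions, the first at chr16:166948-167311 near the end of chromosome 16. Of 10 lymphoid genes, CD79A alone had 1, none had a region of control anti-Flag alone and 2 had a region of all 4 lists. Over all protein-coding genes the shares for these 3 classes were 18.6%, 17.0% and 35.2%. With 10 genes, such counts are too small to show a lack of regions at lymphoid genes. The lists are short, the genes differ in length and neighbourhood, and no list was tested.

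The 10 widest regions were 0.352 to 5.75 kb from any peak of the other lists. The widest was 1831 bp (chr11:65561999-65563829), outside genes, 3.64 kb from LTBP3, which encodes another latent TGF-beta binding protein, and 1.17 kb from the nearest control anti-Flag peak. The second lay in ABCA3, a lipid transporter gene (chr16:2328247-2329890, 1644 bp), 5.75 kb from any other list's peak. The others of the 10 widest, at 1407 to 1641 bp, were in the non-coding gene LOC105369341, in OGFOD3, CCDC57 and MDC1, at 2 places in MROH1, beside AZU1, and 11.4 kb from C8orf33.

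The region beside AZU1 was 1616 bp wide (chr19:826145-827760) and ended 77 bases before the start of AZU1, which encodes azurocidin, a protein of neutrophil granules. It was 2.16 kb from the nearest control anti-Flag peak, 1.78 kb from knockdown anti-ETO and 12.8 kb from control anti-ETO. Of the 250 bases before the AZU1 start (chr19:827587-827836, plus strand), 174 were inside the region, and they are in capitals here.
AZU1: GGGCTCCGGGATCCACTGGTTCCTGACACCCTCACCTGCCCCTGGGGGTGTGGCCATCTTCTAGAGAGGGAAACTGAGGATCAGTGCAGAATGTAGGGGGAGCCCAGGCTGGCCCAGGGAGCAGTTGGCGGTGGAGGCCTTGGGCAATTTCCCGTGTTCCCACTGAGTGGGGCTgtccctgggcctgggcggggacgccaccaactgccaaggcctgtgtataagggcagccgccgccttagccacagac

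Regions far from any other call were few. The 5 farthest were 567 kb (chr17:23583363-23583908, outside genes), 460 kb (in PELI2, chr14:56119351-56119523, 173 bp), 265 kb (in the immunoglobulin heavy locus IGH, chr14:106270673-106270861, 189 bp), 238 kb (chr17:37849357-37849630) and 217 kb (chr9:137845564-137846122) from the nearest peak of the other lists.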

How the data were processed

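Peak positions are the authors' deposited interval lists (chromosome, start and end, with no score), 1 list per antibody and condition. Per the submitters' processing notes, tools included fastp 0.19.5, Bowtie2 2.3.5, MACS2 2.2.5 and HOMER 4.8 with builds hg38 and sacCer3. The peak threshold, the use of the IgG libraries and the joining of the 3 libraries of a group are not given in the sources used here, and each can change which peaks stand alone. Groups came from the sample titles.

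From the lists, peaks sharing at least 1 bp were merged in Python 3.11.15 (numpy 2.4.6, pandas 2.3.3, scipy 1.17.1), and bedtools 2.31.1 gave the same 7945 regions. Genes are RefSeq, GRCh38.p14. Starts and promoter windows were available on 22 chromosomes, and chromosome 8 was not used for them. A chromosome's ends were taken as its first base and the end of its last peak in any list. No genome sequence was used, so sequence was read from promoter windows only. The functions were tested on simulated data in 10 checks, and all 10 returned the planted answer.

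Named were the 10 widest and 5 most isolated regions, the 10 genes with most regions, and the genes of 5 fixed lists with a region, of which 1 is not reported here. Printed promoters are those covered by the widest regions, and others as stated. The regions and lists were chosen with earlier results of these data known. Comparisons with other classes use the same lists and are not independent. Alternatives changed the merging, the lists' lengths, the distances and the gene set.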

Additional observations from a re-analysis of the deposited data

How the results depend on the processing

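Of 98 results under alternative settings, 80 stayed the same. For this a test had to keep both its direction and its side of the threshold. The limits for counts and the CG median were loose, and the median could move by up to the SD over the windows. With gaps of up to 500 bp merged, 5915 regions counted as the same as 7945. So did 2486 genes with the wider 50% of each list, against 3708. A median of 6 CG pairs in windows of 200 bases, against 9, also did. All 28 tests against control anti-Flag alone and all 28 against all 4 lists stayed the same, as did 15 of 28 against anti-Flag in both conditions without anti-ETO. The rule still closed places called in other lists to the regions, so these repeats do not remove that part of the differences. The number of regions was 3785 with the wider 50% of each list and 3554 with all lists as long as the shortest, or 21.1% and 15.5% of merged regions. Protein-coding genes with a region numbered 2218 with equal lengths, 2117 without a flank and 5677 with a flank of 50 kb. Against anti-Flag in both conditions without anti-ETO, with all values as differences in percentage points, the wider 50% of each list gave 1.52 near chromosome ends (reversed), -5.28 near gene boundaries (now passing) and 8.75 on gene-dense chromosomes (reversed). Equal list lengths gave -2.20 near ends and -1.08 near starts (both no longer passing) and 6.32 on gene-dense chromosomes (reversed). Merging gaps of up to 500 bp gave 0.814 near boundaries (reversed), -0.422 near starts (no longer passing) and -3.80 on gene-dense chromosomes (now passing). Near boundaries, 2.5 kb gave -4.44 and protein-coding genes alone -1.67 (both now passing), near starts 500 bp gave -0.862 (no longer passing), and the 2 gene-densest chromosomes gave 0.372 (reversed). The cause was not tested. The alternatives for gene starts were chosen after seeing the data. No paired analysis was possible because the lists name no replicate, and for the same reason leaving out a replicate was not run. Peak heights and read depth are not in the lists, so no precision of a single call can be given.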

Other observations

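Regions called only by knockdown anti-Flag met few microRNA genes. Of 1558 RefSeq miRNA hairpins, 4 overlapped such a region (0.257%): MIR429, a member of the miR-200 family, MIR6514, MIR7850 and MIR3197. Control anti-Flag alone also had 4, anti-Flag in both conditions without anti-ETO had 0, and regions of all 4 lists had 79 (5.07%). These classes covered 1.08, 0.739 and 11.3 Mb, against 2.55 Mb for knockdown anti-Flag alone, and the counts were not tested. The region at MIR429 was 280 bp wide (chr1:1168920-1169199) and held the whole hairpin. Those at MIR6514 and MIR7850 also held the whole hairpin, and that at MIR3197 held part of it. These 4 hairpins were named after their overlap was seen.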
